A study of Homo sapiens with 15 samples.

Results

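The genes described here are 37 genes of O-glycan, sialyl and fucosyl transfer, among them the chaperone C1GALT1C1. Not all serve mucin-type O-glycans, since FUT8 and ST6GAL1 act on N-glycans and ST6GALNAC6 is known for glycolipids. The members were chosen by symbol from a table of 25503 genes, and all 37 symbols were found. By role they comprise 12 polypeptide GalNAc-transferases (the GALNT genes), 6 core and branching genes, 10 sialyltransferases, 8 fucosyltransferases and B3GALT5, which makes type 1 chains. RNA sequencing had been run on 15 libraries of AsPC-1 and Capan-1, established human cell lines from metastases of pancreatic ductal adenocarcinoma, in 5 groups of 3. AsPC-1 had been transfected with a non-targeting control (siNC), with an siRNA for B4GALT5 (siB4GALT5) or with one for B3GNT3 (siB3GNT3), and Capan-1 with siNC or siB3GNT3. No group was left untransfected, and the siRNA sequences, their dose and the time of harvest are not given in the sources used here. The labels do not state that replicates were separate cultures, so p-values measure the spread between libraries, which may be technical. Each line is a single cell line, and a transient siRNA lowers a transcript without removing it.

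Mucin-type O-glycans begin in the Golgi when a GALNT enzyme attaches N-acetylgalactosamine to serine or threonine, which gives the Tn antigen. C1GALT1, with its chaperone C1GALT1C1 (COSMC), adds galactose to make core 1, and GCNT1, GCNT3 and GCNT4 add the branch that makes core 2, while GCNT2 branches polylactosamine chains. B3GNT3 extends core 1, B4GALT5 adds galactose, best known in lactosylceramide, and the chains are then capped by sialic acid or fucose. ST3GAL1 and ST3GAL2 sialylate the galactose of core 1, the ST6GALNAC enzymes add sialic acid to the GalNAc, and FUT3 completes the Lewis epitopes, including the sialyl Lewis a antigen (CA19-9) used as a serum marker of pancreatic cancer.

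The silenced genes were checked first in every library. In AsPC-1, B4GALT5 stood at 38.7, 35.8 and 35.5 FPKM (fragments per kilobase of transcript, scaled to the library's size) with siNC and at 8.70, 8.49 and 8.03 with siB4GALT5, a log2 fold change of -2.001 (SE 0.06, limma adjusted p = 6.79e-08). B3GNT3 in AsPC-1 stood at 22.5, 23.8 and 23.3 FPKM with siNC and, in the 3 libraries labelled siB3GNT3, at 2.53, 2.50 and 24.2. The library labelled AsPC-1 siB3GNT3 replicate 3 thus lay above all siNC libraries for the gene it was to silence, and it was set apart. Without it the log2 fold change of B3GNT3 was -2.78, given without a p because the libraries were kept for their low B3GNT3. With it the change was -1.84 (limma adjusted p = 0.168). In Capan-1, B3GNT3 fell from 13.3, 13.2 and 13.7 to 1.32, 1.67 and 1.84 FPKM, by 2.47 on the log2 scale (SE 0.09, limma adjusted p = 1.23e-05). With siB4GALT5, B3GNT3 stood at 32.4, 30.8 and 27.9 FPKM, above all AsPC-1 siNC libraries (log2 fold change 0.37, limma adjusted p = 0.000892). With AsPC-1 siB3GNT3 replicate 3 in that fit the adjusted p was 0.657. B4GALT5 was not called with siB3GNT3 in either line (limma adjusted p = 0.227 in AsPC-1 and 0.120 in Capan-1). Since the AsPC-1 siB3GNT3 libraries that remain were kept because their target was low, their p-values describe those 2 libraries, and the value with replicate 3 is given beside each change called in them.

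Across libraries, 10339 to 11531 genes reached 1 FPKM. Low values gave relative depths of 0.949 to 1.03 times that of AsPC-1 siNC replicate 1, and absolute depth is unknown, so no counting error can be given. Mitochondrial transcripts took 23.8% to 24.8% of summed FPKM in AsPC-1 siNC, 18.1% to 19.5% with siB4GALT5, 20.1% and 19.7% in the kept siB3GNT3 libraries and 24.3% in replicate 3, against 13.6% to 14.8% in Capan-1; their part in the results was not tested. Of 8 ductal markers, 6 reached 1 FPKM in every AsPC-1 library, with KRT7 and CDH1 under 1, and all 8 did in Capan-1. The 3 acinar markers in the table stayed under 1 FPKM (at most 0.125), as did all endothelial markers in AsPC-1, while PECAM1 reached 1.63 in Capan-1. Of 4 fibroblast markers, 3 stayed under 1 FPKM in every AsPC-1 library and 2 in every Capan-1 library. The same numbers held for 4 leukocyte markers. The highest were LUM with 91.8 FPKM in AsPC-1, COL1A1 with 77.6 in Capan-1, and CD68 with 52.2 and 212. These markers are not exclusive to fibroblasts or leukocytes, and their part in the results was not tested. In bulk RNA, fewer cells of a type and less RNA per cell cannot be told apart.

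ST6GALNAC4, which adds sialic acid to the GalNAc of an already sialylated core 1, fell with siB3GNT3 in both lines, so its promoter is shown. The gene lies on the minus strand of chromosome 9 (GRCh38, GENCODE 29, 127907886 to 127917038). The 250 bases before the RefSeq start, at chr9:127917042-127917291 of GRCh38.p14, are printed on the gene's strand, with each GC box (GGGCGG on either strand) in capitals.
ST6GALNAC4 promoter: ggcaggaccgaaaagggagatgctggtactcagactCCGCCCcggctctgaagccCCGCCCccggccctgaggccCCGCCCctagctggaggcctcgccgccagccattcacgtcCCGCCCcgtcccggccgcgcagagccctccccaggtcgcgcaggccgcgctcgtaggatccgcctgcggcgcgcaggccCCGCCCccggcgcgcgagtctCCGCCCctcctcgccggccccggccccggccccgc
Its GC content was 79.2%, against a median of 58% over all promoters. It held 6 GC boxes, a number reached by 2.22% of 35116 RefSeq promoter windows, a share not adjusted for GC content. At least 1 GC box stood in 42.6% of all windows and in 27 of 47 windows of the 27 members matched.  These matches describe letters and say nothing of the factors that bind.

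At baseline the lines differed in most of the transferases they expressed. Of 24 members that reached 1 FPKM in at least 3 of the 6 siNC libraries, 12 were higher in Capan-1 and 9 lower (limma adjusted p under 0.05). Of all 11656 genes tested, 47% were higher and 37.9% lower, so the members' share was near the background. GALNT3 and ST3GAL3 passed the filter only through Capan-1, where they are higher, and FUT10 and ST3GAL6 only through AsPC-1. Such genes had to differ, so their values are given without a p, and without them 10 members were higher and 7 lower. Their median log2 difference was 0.12, against 0.09 over all genes. Line and any handling of the line's samples as a batch cannot be told apart. The plot of control libraries shows each member's level.

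**Figure D1:**
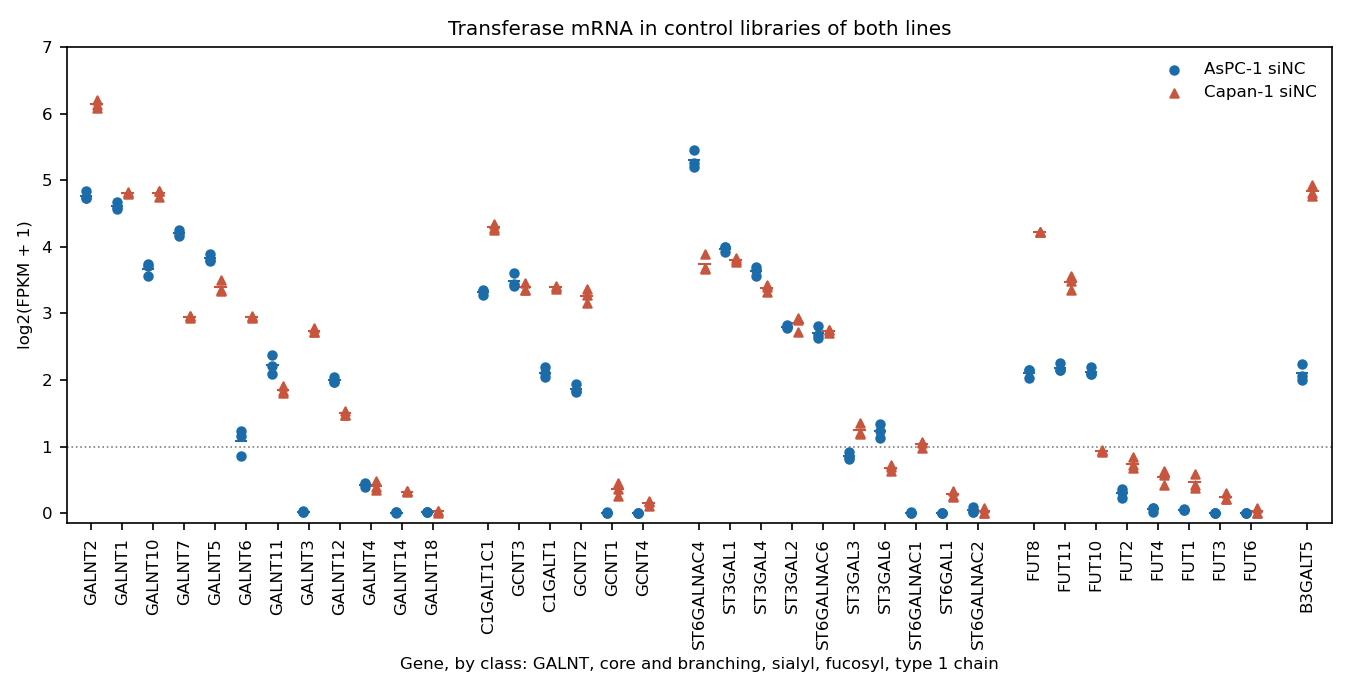
Level of all 37 genes in the 6 control libraries, as log2(FPKM + 1), by role class (circles, AsPC-1 siNC; triangles, Capan-1 siNC; bars, means of 3; dotted line, 1 FPKM). B3GALT5, GALNT3 and FUT8 lay far higher in Capan-1, and ST6GALNAC4, GALNT7 and FUT10 higher in AsPC-1.

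Among the GALNT genes, 5 were higher in Capan-1 and 4 lower, of 9 tested. GALNT2, a broadly expressed initiating enzyme (chromosome 1, 230057990 to 230282124), was the highest GALNT gene in both lines, at 27.7, 25.5 and 25.5 FPKM in AsPC-1 and 72.9, 69.2 and 66.8 in Capan-1. The groups did not overlap, and the log2 difference was 1.37 (SE 0.05, limma adjusted p = 1.79e-09). GALNT3, known for O-glycosylating the phosphate hormone FGF23, was nearly off in AsPC-1, at 0.00861, 0.00870 and 0.0171 FPKM, and on in Capan-1 at 5.58, 5.61 and 5.88. Its close relative GALNT6 stood at 1.34, 0.821 and 1.23 FPKM in AsPC-1 and 6.71, 6.80 and 6.59 in Capan-1, so both members of that pair were higher in Capan-1. On the log2(FPKM + 1) scale, which understates low genes, GALNT3 differed by 2.72 and GALNT6 by 1.86 (limma adjusted p = 2.40e-08). GALNT10 stood at 12.4, 12.1 and 10.8 FPKM in AsPC-1 and 26.0, 27.7 and 27.7 in Capan-1, a log2 difference of 1.14 (limma adjusted p = 2.79e-08). The opposite order held for GALNT7, an enzyme that prefers substrates already carrying GalNAc, with 18.1, 17.5 and 16.9 FPKM in AsPC-1 and 6.77, 6.60 and 6.80 in Capan-1. Its log2 difference was -1.26 (limma adjusted p = 3.46e-09). GALNT5, GALNT11 and GALNT12 were also lower in Capan-1, by 0.37 to 0.50 on the log2 scale.

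GALNT2 made up 26.2% ± 0.828 (SD, n = 3) of the summed GALNT FPKM in AsPC-1 and 44.2% ± 1.54 in Capan-1. GALNT7 took 17.4% and 4.27%. The GALNT sum, over the 12 members, was 100.4 ± 1.62 FPKM in AsPC-1 and 157 ± 1.55 in Capan-1. GALNT9 is not a member and was left out. It stood at 8.42 FPKM in Capan-1 siNC and 1.29 in AsPC-1 siNC.

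Core genes were higher in Capan-1 wherever a difference was called, in 3 of 4 tested. C1GALT1, the core 1 synthase, stood at 3.28, 3.57 and 3.12 FPKM in AsPC-1 and 9.27, 9.50 and 9.69 in Capan-1, a log2 difference of 1.28 (SE 0.06, limma adjusted p = 1.48e-08). Its chaperone C1GALT1C1 was the highest core gene of Capan-1, at 18.1, 18.4 and 19.3 FPKM against 9.20, 9.05 and 8.69, so the synthase and its partner stood higher together. C1GALT1C1 differed by 0.97 (adjusted p = 2.18e-08), just under the difference of 1 used to select genes for full values, and FUT10 and GALNT10 lay just over it. GCNT2 stood at 2.57, 2.83 and 2.52 FPKM in AsPC-1 and 7.88, 9.29 and 8.71 in Capan-1, a log2 difference of 1.402 (limma adjusted p = 2.81e-08). GCNT3, the mucin-type core 2 enzyme, was the highest core gene of AsPC-1, at 9.62, 11.1 and 9.86 FPKM, and Capan-1 had 9.48 ± 0.463 (SD, n = 3). Its difference of -0.10 was not called (limma adjusted p = 0.186). GCNT1 and GCNT4, the other core 2 enzymes, were under 1 FPKM in every library, at most 0.371 and 0.676.

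Among the sialyltransferases, 1 of 7 tested was higher in Capan-1 and 4 were lower, of which ST3GAL3 and ST3GAL6 passed the filter through 1 line only. ST6GALNAC4 was the highest of them in AsPC-1, at 37.3, 43.0 and 35.8 FPKM, and stood at 11.6, 11.9 and 13.9 in Capan-1. The log2 difference was -1.56 (SE 0.08, limma adjusted p = 3.23e-08), with no overlap. It made up 49.2% ± 1.79 (SD, n = 3) of the member sialyltransferases' summed FPKM in AsPC-1 and 24.9% ± 1.92 in Capan-1. All sialyltransferase sums here cover the 10 members only. They leave out ST3GAL5, which stood at 18.9 FPKM in Capan-1 siNC and 2.59 in AsPC-1 siNC. ST3GAL1, which competes with core 2 branching for core 1, had the highest mean of these members in Capan-1, although ST6GALNAC4 was above it in replicate 3. ST3GAL1 stood there at 12.7, 13.003 and 13.3 FPKM, against 15.01, 14.98 and 14.1 in AsPC-1. That difference was small, -0.17 (limma adjusted p = 0.00708), and rescaling every library to a common sum removed it (-0.01, adjusted p = 0.816). ST3GAL4, which sialylates lactosamine ends, was lower in Capan-1 by 0.26, a call also lost with the common sum (adjusted p = 0.0977), and ST3GAL6 stood under 1 FPKM there, with a log2 difference of -0.55. ST3GAL2 and ST6GALNAC6 were not called (adjusted p = 0.476 and 0.669). ST6GALNAC1, the enzyme of the sialyl-Tn antigen, was listed at 0 or 0.00742 FPKM in AsPC-1 siNC and stood at 0.979, 1.08 and 1.09 in Capan-1, but it reached the filter in too few siNC libraries to be tested. ST6GAL1, which sialylates N-glycans, was at most 0.330 FPKM anywhere.

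Of the fucosyltransferases, only FUT8, FUT10 and FUT11 passed the filter among the siNC libraries. FUT8, the enzyme of N-glycan core fucose (chromosome 14, 65410592 to 65744121), stood at 3.43, 3.43 and 3.07 FPKM in AsPC-1 and 17.6, 17.6 and 17.7 in Capan-1. The groups were far apart, and its log2 difference was 2.11 (SE 0.05, limma adjusted p = 2.16e-10). FUT11 stood at 3.42, 3.43 and 3.77 FPKM in AsPC-1, with the highest mean of the class there but above FUT8 and FUT10 in replicate 3 only, and 9.18, 10.2 and 10.8 in Capan-1, a log2 difference of 1.28 (limma adjusted p = 4.68e-08). FUT10, a relative of FUT11, took the opposite order, with 3.26, 3.56 and 3.24 FPKM against 0.902, 0.933 and 0.888, a log2 difference of -1.19. FUT8 took 31.5% of the fucosyltransferase sum in AsPC-1 and 58.1% in Capan-1, and FUT10 31.9% and 3.00%. FUT1, FUT2, FUT3, FUT4 and FUT6, which make the H and Lewis-type structures, stayed under 1 FPKM in every library, with the highest value 0.944 for FUT4. FUT3 reached at most 0.446 and was listed at 0 in 4 libraries.

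B3GALT5, the galactosyltransferase that builds type 1 chains, the backbone of sialyl Lewis a, was also far higher in Capan-1 (chromosome 21, 39556442 to 39673137). It stood at 3.71, 2.98 and 3.19 FPKM in AsPC-1 and 26.2, 29.4 and 26.9 in Capan-1, with a log2 difference of 2.73 (SE 0.07, limma adjusted p = 2.70e-10). B3GALT5 and GALNT3 had almost the same difference on this scale, but with a pseudocount of 0.1 theirs were 3.03 and 5.70. In Capan-1, B3GALT5 was abundant while FUT3, which completes sialyl Lewis a, was under 1 FPKM.

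**Figure D2:**
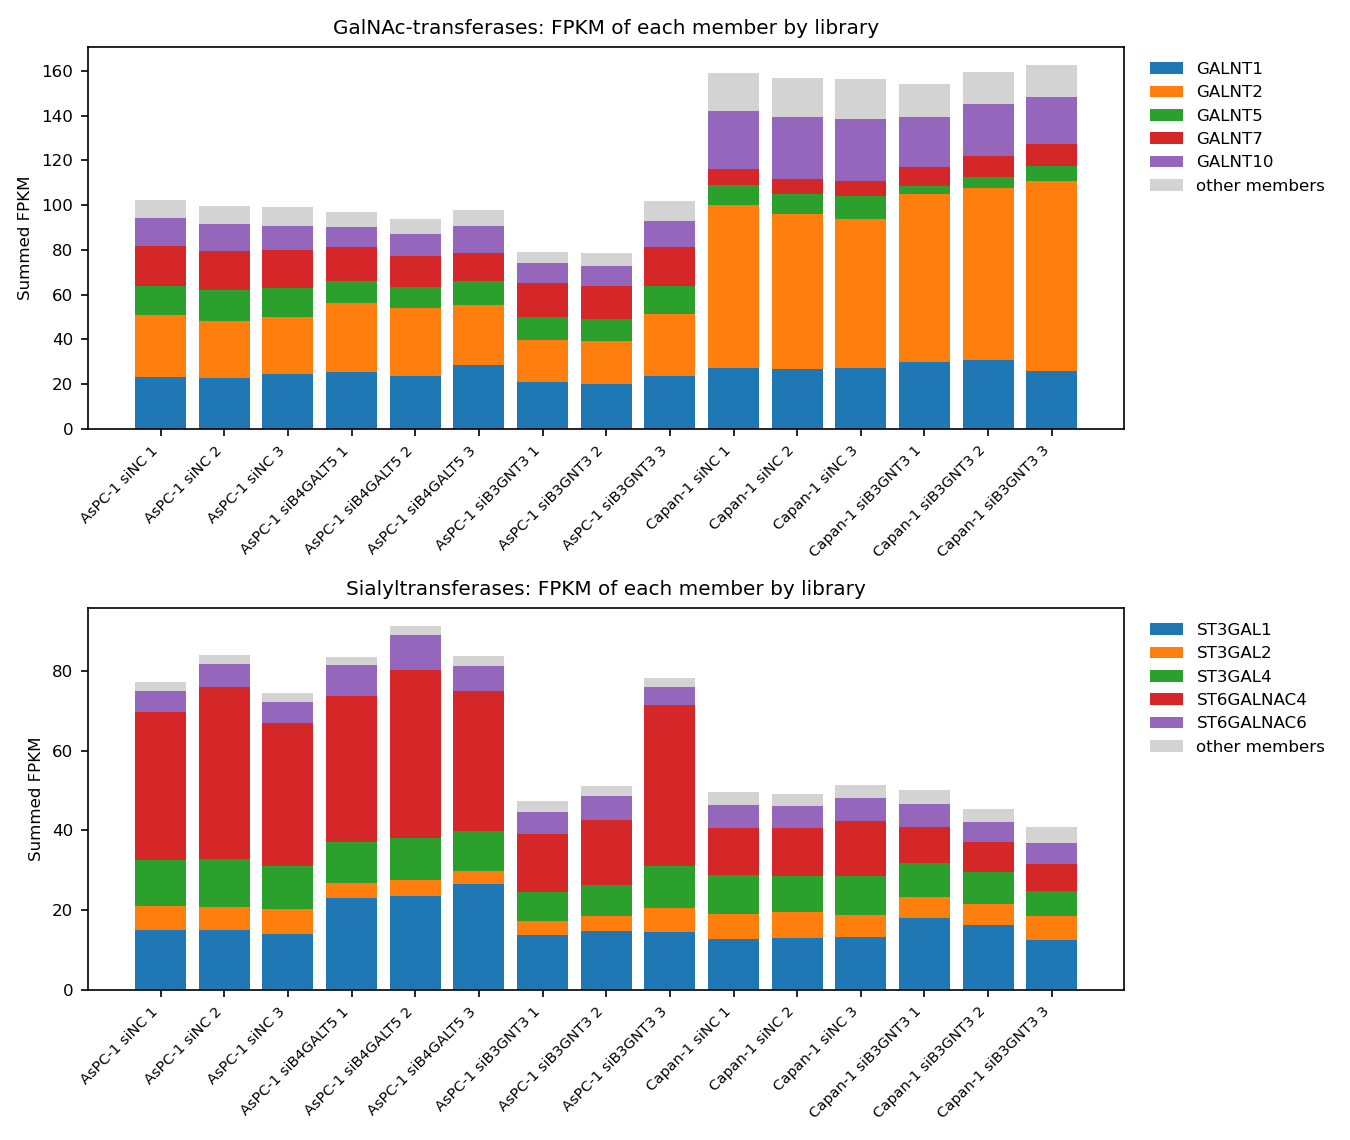
Summed FPKM of the GalNAc-transferases (top) and sialyltransferases (bottom) among the members in each of the 15 libraries, with each bar split by member. ST6GALNAC4 fills 49.2% of the AsPC-1 siNC sialyltransferase sum on average, and GALNT2 44.2% of the Capan-1 siNC GALNT sum.

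With siB4GALT5 in AsPC-1, ST3GAL1 and ST6GALNAC6 rose and ST3GAL2 fell among the sialyltransferases, and GALNT5, GALNT7 and GALNT12 fell. Of 23 members tested, 3 rose and 5 fell, against 35.2% and 23% of all 10775 genes, so the share that fell was near the background. The median log2 change was -0.04, against 0.06 over all genes. Replicate 3 of siB4GALT5 lay 0.242 and 0.261 (root mean square log2 difference) from replicates 1 and 2, which lay 0.151 apart. In 1 of the 8 called members and 11 of 23 tested, it lay nearer the siNC mean than its own group. Without it 6863 genes were called, against 6271 with it. ST3GAL1 went from 15.01, 14.98 and 14.1 FPKM to 23.1, 23.6 and 26.7. All siB4GALT5 libraries lay above all controls, and it rose by 0.70 (SE 0.07, limma adjusted p = 2.59e-05) on the log2 scale. ST3GAL2, which shares its core 1 acceptor, went the other way, from 5.91, 5.86 and 6.09 FPKM to 3.74, 3.92 and 3.22, and fell by 0.59 (SE 0.07, adjusted p = 0.000125). As a share of the sialyltransferase sum, ST3GAL1 went from 18.7% to 28.5%. ST6GALNAC6, known for sialylating glycolipids, rose by 0.40 (adjusted p = 0.00884), from 5.53 ± 0.416 to 7.66 ± 1.26 FPKM (SD, n = 3). ST6GALNAC4 did not pass the test (-0.03, adjusted p = 0.805), with 36.5, 42.0 and 35.2 FPKM.

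GALNT12, an initiating enzyme linked to inherited colorectal cancer risk, fell from 3.10, 2.92 and 2.91 to 1.43, 1.53 and 1.71 FPKM, by 0.64 (SE 0.07, limma adjusted p = 8.78e-05). With a pseudocount of 0.1 the change of GALNT12, -0.90, was larger than the 0.73 of ST3GAL1. GALNT5 and GALNT7 fell by 0.38 and 0.32 (adjusted p = 0.00147 and 0.00584), and GCNT2 by 0.40 (adjusted p = 0.00159). FUT8 rose by 0.22, at the edge of the threshold (adjusted p = 0.0456). That call was lost without any 1 of 6 libraries (siNC 1, 2 or 3, siB3GNT3 1 or 2, siB4GALT5 3; adjusted p 0.0639 to 0.147) and with AsPC-1 siB3GNT3 replicate 3 in the fit (0.0865). C1GALT1, with 2.19, 2.01 and 4.40 FPKM, had 1 library above and 2 below all controls and was not called (-0.21, adjusted p = 0.358).

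**Figure D3:**
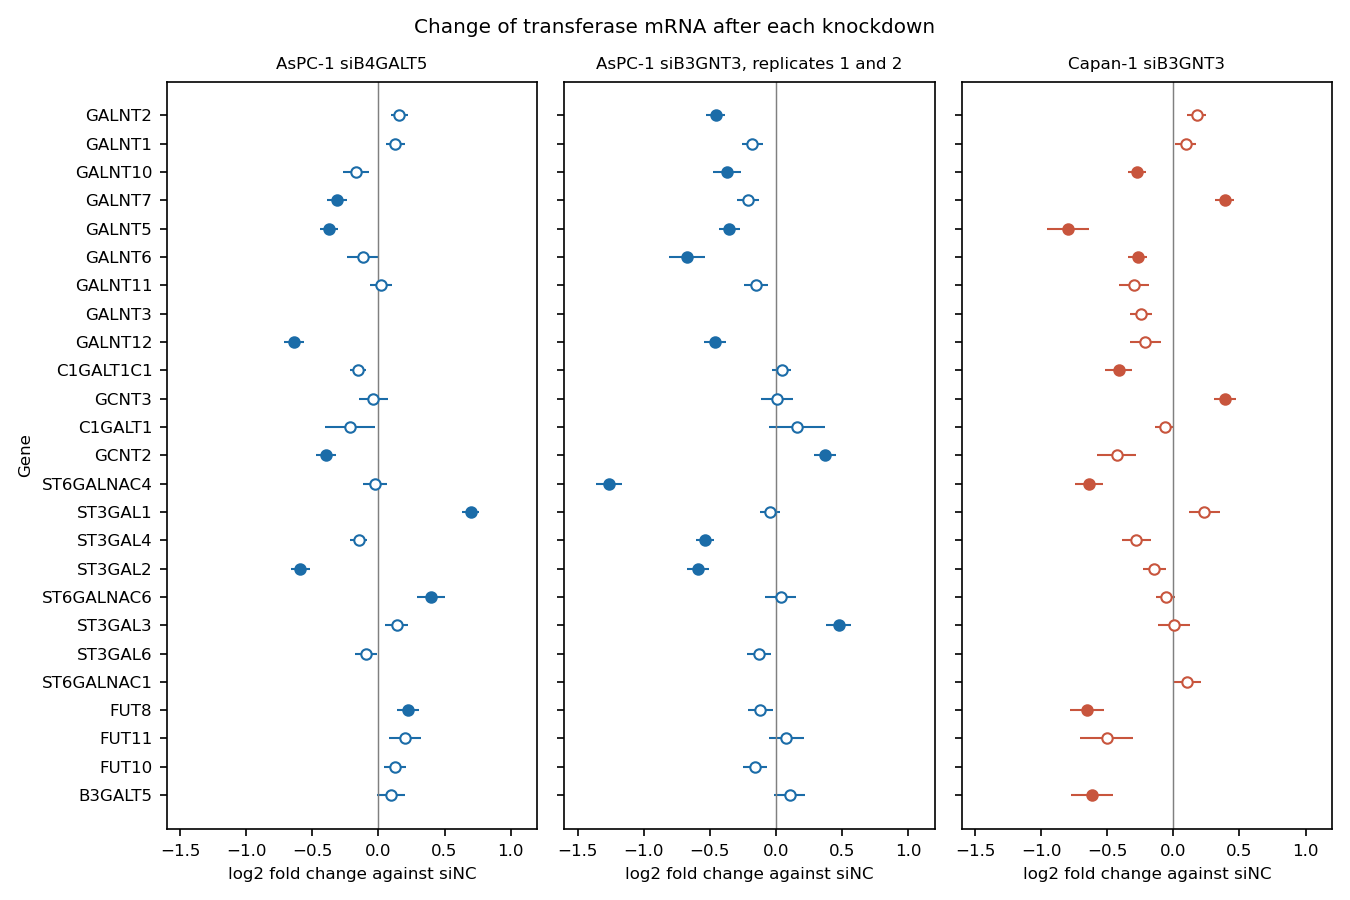
Log2 fold change (with SE) of each tested member against siNC after siB4GALT5 in AsPC-1, siB3GNT3 in AsPC-1 (replicates 1 and 2) and siB3GNT3 in Capan-1; filled points passed limma at adjusted p under 0.05. ST3GAL1 stands at 0.70 in the left panel, and ST6GALNAC4 at -1.26 and -0.64 in the other panels. GALNT6 and ST3GAL3 are filled in the middle panel, but they passed the filter only through the group where they are higher. Their fill there carries no weight.

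With siB3GNT3 in AsPC-1, read from replicates 1 and 2, 5 of 8 GALNT genes and 3 of 7 sialyltransferases were lower. Of 23 members tested, 2 rose and 8 fell, against 32.5% and 20.4% of all genes, and the median was -0.15, against 0.07. GALNT6, lower, and ST3GAL3, higher, are in these counts, but among the compared groups they reached 1 FPKM only in the group where they are higher, so their values are given without a p. Without them 1 member rose and 7 fell. With replicate 3 included, 0 of 10804 genes were called by limma (0% of those tested), although 3011 had an unadjusted p under 0.05. For all 10 called members replicate 3 lay nearer the siNC mean than the mean of its own group, and for 20 of 23 tested. The root mean square log2 difference of replicate 3 from the siNC libraries was 0.141 to 0.150, close to that between siNC libraries (0.144 to 0.146), and from the other siB3GNT3 libraries 0.453 and 0.465.

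ST6GALNAC4, the leading sialyltransferase of the line, stood at 37.3, 43.0 and 35.8 FPKM with siNC, at 14.6 and 16.4 in the kept siB3GNT3 libraries and at 40.5 in replicate 3. The kept libraries were below all others of the line, and it fell by 1.26 on the log2 scale (SE 0.10, limma adjusted p = 1.09e-05; with replicate 3, -0.82 and adjusted p = 0.168). Its share of the sialyltransferase sum was down to 30.8% in the lower of the kept libraries and was 51.7% in replicate 3. That sum was 78.5 ± 4.85 FPKM with siNC and 47.4 and 51.2 in the kept libraries. ST3GAL4 had 11.6, 12.0 and 10.8 FPKM with siNC and 7.31, 7.85 and 10.5 with siB3GNT3, replicate 3 last. It fell by 0.54 (adjusted p = 0.000193; with replicate 3, -0.40 and 0.168). ST3GAL2 had 3.51 and 3.73 FPKM in the kept libraries and 6.08 in replicate 3, and fell by 0.59 (adjusted p = 0.000313; with replicate 3, -0.38 and 0.168). ST3GAL3, at 1.46 and 1.57 FPKM against 0.801, 0.885 and 0.750 with siNC, had a log2 difference of 0.47 (with replicate 3, 0.33). ST3GAL1, the gene that rose with siB4GALT5, stood at 13.7, 14.8 and 14.4 FPKM and did not pass the test (-0.04, adjusted p = 0.647; with replicate 3, -0.04 and 0.753).

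In the GALNT class 5 of 8 tested were called lower, GALNT6 among them, and none higher. GALNT6 stood at 0.314 and 0.349 FPKM in the kept libraries and 1.28 in replicate 3, against 1.34, 0.821 and 1.23 with siNC. Its log2 difference was -0.67 (with replicate 3, -0.41), and with a pseudocount of 0.1 it was -1.49, beyond the -1.31 of ST6GALNAC4. GALNT2, the highest initiating enzyme, had 18.7 and 19.0 FPKM, and 27.5 in replicate 3, and fell by 0.46 (adjusted p = 0.000638; with replicate 3, -0.28 and 0.200). GALNT12, GALNT10 and GALNT5 fell by 0.46, 0.37 and 0.35 (adjusted p = 0.00138, 0.0173 and 0.00453; with replicate 3, 0.369, 0.217 and 0.168). The call for GALNT10 was lost without siNC 1 or 2 or siB3GNT3 1 or 2 (adjusted p 0.0524 to 0.0850). GALNT6 and ST3GAL3 missed the filter when some libraries were left out. GCNT2 rose by 0.37 (adjusted p = 0.00495; with replicate 3, 0.20 and 0.337), from 2.64 ± 0.170 (SD, n = 3) to a mean of 3.70 FPKM. No fucosyltransferase was called, 0 of 3 by limma, and B3GALT5 did not pass the test (0.10, adjusted p = 0.483; with replicate 3, 0.04 and 0.832).

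In Capan-1 with siB3GNT3, 3 of 9 GALNT genes, 1 of 4 core genes, 1 of 7 sialyltransferases, 1 of 2 fucosyltransferases and B3GALT5 were called lower. Of 23 members tested, 2 rose and 7 fell, against 18.7% and 14.2% of all 11493 genes, and the median was -0.24, against 0.02 over all genes. GALNT5 stood at 9.05, 9.17 and 10.3 FPKM with siNC and 3.75, 4.94 and 6.77 with siB3GNT3, without overlap. It fell by 0.80 (SE 0.16, limma adjusted p = 0.00814). FUT8 went from 17.6, 17.6 and 17.7 to 8.81, 10.7 and 13.5 FPKM, a fall of 0.65 (SE 0.13, adjusted p = 0.00716) that left it above every AsPC-1 library. ST6GALNAC4 went from 11.6, 11.9 and 13.9 to 8.91, 7.34 and 6.78 FPKM and fell by 0.64 (SE 0.11, adjusted p = 0.00407). Its share of the sialyltransferase sum went from 24.9% ± 1.92 to 16.8% ± 0.824 (SD, n = 3). B3GALT5 had 16.3, 14.1 and 23.4 FPKM against 26.2, 29.4 and 26.9, and fell by 0.62 (SE 0.16, adjusted p = 0.0196). C1GALT1C1 fell by 0.41 (adjusted p = 0.0165), from 18.6 ± 0.627 to 13.8 ± 2.09 FPKM (SD, n = 3), while C1GALT1 did not pass the test (-0.07, adjusted p = 0.505). GALNT10 and GALNT6 fell by 0.28 and 0.27 (adjusted p = 0.0159 and 0.0188). Beside these, COL1A1 rose from 49.95 to 75.7 FPKM and LUM fell from 9.64 to 5.88 in the same libraries, and their part in the changes was not tested.

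Among the Capan-1 members that rose, GALNT7 went from 6.72 ± 0.109 to 9.12 ± 0.506 FPKM (SD, n = 3), by 0.39 (limma adjusted p = 0.00538), and GCNT3 from 9.48 ± 0.463 to 12.8 ± 1.16, also by 0.39 (adjusted p = 0.00967). FUT11, with 5.40, 5.54 and 10.3 FPKM, and GCNT2, with 5.17, 5.43 and 8.16, were low in replicates 1 and 2 only and were not called (adjusted p = 0.0866 and 0.0560). In 4 of the 9 called members and 12 of 23 tested, replicate 3 lay nearer the siNC mean than its own group, although its B3GNT3 was reduced. Without it, 15 members were called, FUT11 (-0.77) and GCNT2 (-0.61) among them. Calls over all genes also went up, from 3786 of 11493 to 5715 of 11338. With other single libraries left out, the calls for B3GALT5, C1GALT1C1, GALNT10 and GALNT6 were each lost, at adjusted p between 0.0522 and 0.0803. B3GALT5 was lost without siNC 1, 2 or 3 or siB3GNT3 1 or 2, C1GALT1C1 and GALNT6 without siNC 1, 2 or 3 or siB3GNT3 2, and GALNT10 without siNC 2 or 3. GALNT5, FUT8, ST6GALNAC4, GALNT7 and GCNT3 passed in each of these fits.

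**Figure D4:**
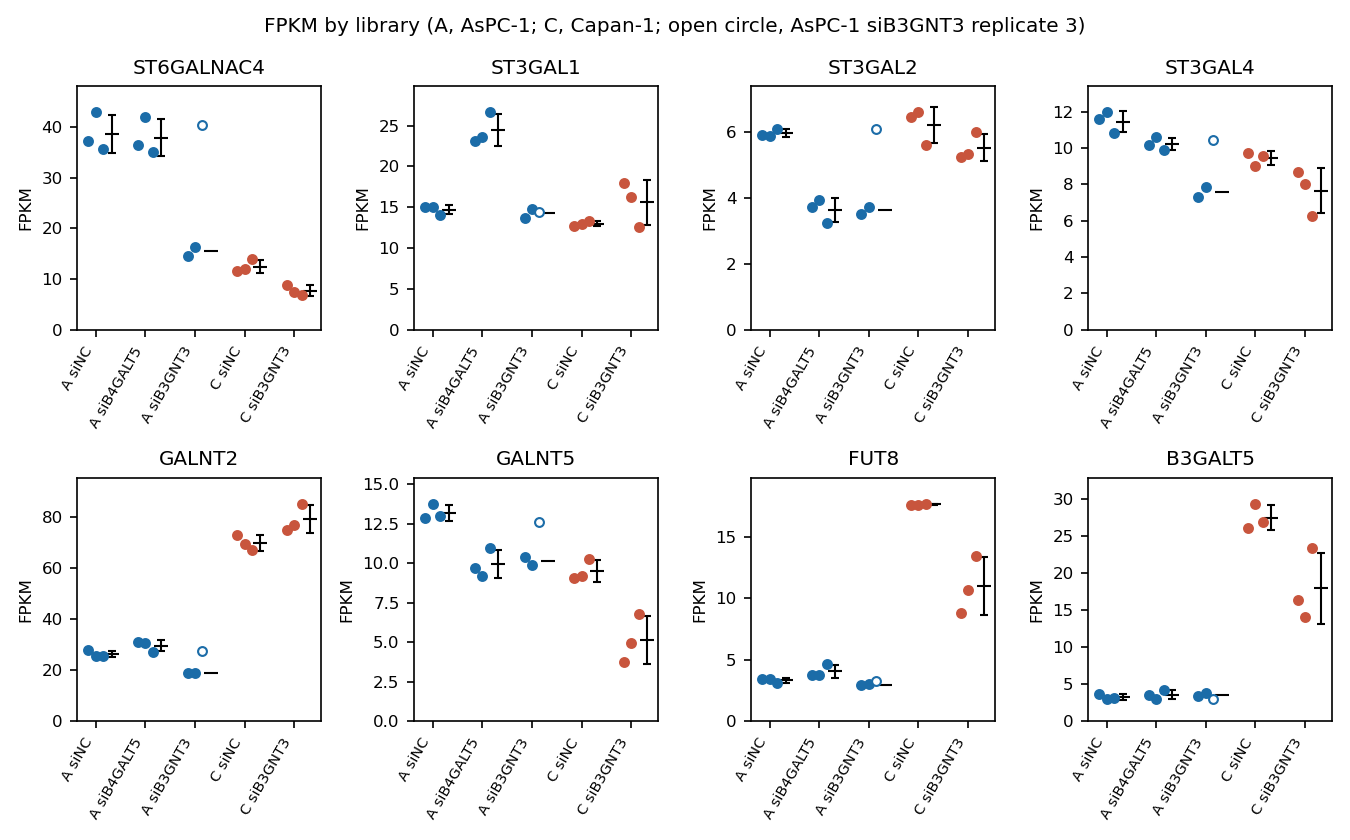
FPKM of 8 members in every library (A, AsPC-1; C, Capan-1; bars, mean and SD, mean only for the kept AsPC-1 siB3GNT3 libraries; open circle, AsPC-1 siB3GNT3 replicate 3). ST6GALNAC4 lies at 14.6 and 16.4 in the kept AsPC-1 siB3GNT3 libraries and at 40.5 in replicate 3.

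The members that fell with siB3GNT3 overlapped in part between the lines, which share no libraries. GALNT5, GALNT6, GALNT10 and ST6GALNAC4 were called lower in both, which is 50% of the 8 in AsPC-1 and 57.1% of the 7 in Capan-1. GALNT6 reached 1 FPKM only through siNC among the compared AsPC-1 groups, so its place in the overlap carries no weight. Without it GALNT5, GALNT10 and ST6GALNAC4 remain, of 7 members lower in AsPC-1. Calls for GALNT10 and GALNT6 were lost in both lines when some single libraries were left out. Over all genes, 586 were called lower in both, 26.7% of those in AsPC-1 and 35.9% of those in Capan-1. These shares were not compared by a test. The difference between the lines was then tested for each member as an interaction over 14 libraries. It was called for 9 of 25 members (4 less negative or more positive in Capan-1, 5 the reverse), against 32.8% of all 12236 genes, a share near the background. For GALNT5, GALNT6 and GALNT10 the interaction was not called (adjusted p = 0.0998, 0.0546 and 0.613; with replicate 3, 0.107, 0.747 and 0.947), which does not show that they responded alike. With a pseudocount of 0.1 the interaction of GALNT6 was called (1.18, limma adjusted p = 0.00439). ST6GALNAC4 fell less in Capan-1, where it began lower, with an interaction of 0.63 (SE 0.16, limma adjusted p = 0.00806), which with AsPC-1 siB3GNT3 replicate 3 was 0.18 (adjusted p = 0.792). GALNT2 fell in AsPC-1 and stood at 74.8, 76.8 and 85.1 FPKM against 72.9, 69.2 and 66.8 in Capan-1, where its 0.18 was not called (adjusted p = 0.0884). Its interaction was 0.63 (SE 0.10, limma adjusted p = 0.000431; with replicate 3, 0.46 and 0.0998). FUT8, B3GALT5 and C1GALT1C1 fell in Capan-1 and were not called in AsPC-1 (adjusted p = 0.313, 0.483 and 0.625). Their interactions were -0.53, -0.72 and -0.46 (adjusted p = 0.0274, 0.0208 and 0.0144; with replicate 3, 0.0451, 0.0681 and 0.0260).

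Both AsPC-1 knockdowns share their siNC libraries, so they were also compared with each other directly. Between siB4GALT5 and the kept siB3GNT3 libraries, 11 of 23 members differed (9 higher with siB4GALT5, 2 lower), against 35.2% of all genes in either direction. GALNT6 is in these counts, but among the compared groups it reached 1 FPKM only with siB4GALT5, where it is higher. Its call therefore carries no weight, and without it 8 members were higher and 2 lower. ST6GALNAC4 was higher with siB4GALT5 by 1.24 (SE 0.10, limma adjusted p = 2.59e-05; with replicate 3, 0.79 and 0.111), at 37.9 ± 3.62 FPKM (SD, n = 3) against 14.6 and 16.4. ST3GAL1 was higher with siB4GALT5 by 0.74 (adjusted p = 0.0001; with replicate 3, 0.73 and 0.000695) and GALNT2 by 0.61 (adjusted p = 0.00024; with replicate 3, 0.44 and 0.0591). GALNT6, at 0.964 ± 0.246 FPKM (SD, n = 3) with siB4GALT5, differed by 0.55 (with replicate 3, 0.30) or, with a pseudocount of 0.1, by 1.28, and reached 1 FPKM in neither kept siB3GNT3 library. GCNT2 was lower with siB4GALT5, at 1.86, 1.86 and 1.58 FPKM against 3.81 and 3.60, a difference of -0.77 (adjusted p = 0.000163; with replicate 3, -0.60 and 0.0215). With siNC at 2.57, 2.83 and 2.52, GCNT2 thus lay on opposite sides of the control with the 2 siRNAs. ST3GAL2, which fell with each siRNA, did not differ detectably between them (-0.00, SE 0.08, adjusted p = 0.999; with replicate 3, -0.21 and 0.401). Of the 11 calls, ST3GAL1, ST6GALNAC6 and GCNT2 were kept when replicate 3 was included. Only ST6GALNAC4, ST3GAL1, GALNT2, ST3GAL4 and GCNT2 passed with each single library left out. Without siB3GNT3 replicate 1, and likewise without replicate 2, these 5 were the members called.

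Other genes of the same pathway were counted from a list of 56, of which 53 were in the table: further transferases, enzymes and transporters of the donor sugars, and enzymes that remove sugars. At baseline 16 of 31 tested were higher in Capan-1 and 13 lower (47% and 37.9% of all genes). The lysosomal sialidase NEU1 stood at 30.7 FPKM in Capan-1 and 1.51 in AsPC-1 (log2 difference 3.66), and ST3GAL5, the GM3 synthase, at 18.9 and 2.59 (2.47). SLC35C1, the Golgi transporter of GDP-fucose, stood at 4.17 in Capan-1 and 17.8 in AsPC-1 (-1.86). With siB4GALT5, 6 of 29 rose and 6 fell (35.2% and 23% of all genes), among them the galactokinase GALK1, which fell by 0.91 (17.5 to 8.88 FPKM), and the plasma membrane sialidase NEU3, which fell by 0.60. With siB3GNT3 in AsPC-1, 5 of 29 rose and 8 fell (32.5% and 20.4% of all genes). GNE, which starts sialic acid synthesis, fell by 0.76 (37.4 to 21.6 FPKM) and NEU3 by 0.81 (5.53 to 2.73), both with an adjusted p of 0.168 once replicate 3 was included. In Capan-1, 4 of 31 rose and 14 fell, 9 of them among 18 donor-sugar genes (18.7% and 14.2% of all genes). NANS, the sialic acid synthase, fell by 0.75 (21.4 to 12.4 FPKM), UAP1, which makes UDP-GlcNAc and UDP-GalNAc, by 0.56 (16.1 to 10.6), and the protein O-fucosyltransferase POFUT1 by 0.85 (27.3 to 14.7).

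The members not described above were low. GALNT4, GALNT14 and GALNT18 were under 1 FPKM in every library, at most 0.483, 0.638 and 0.0404, as was ST6GALNAC2, at most 0.119. In all, 12 of the 37 stayed under 1 FPKM throughout and 19 reached it in every library. GALNT1, an initiating enzyme, stood in the siNC libraries at 23.1, 22.8 and 24.5 FPKM for AsPC-1 and at 27.3, 26.7 and 27.1 for Capan-1 (log2 difference 0.19, limma adjusted p = 0.00149), and was not called in any knockdown. Exons of FUT8, FUT10, FUT11, GALNT2, GALNT6, GALNT7, GALNT10, GALNT11, GALNT12, ST3GAL2, ST3GAL3, ST3GAL6 and ST6GALNAC6, and of some low members, overlap those of a neighbouring or antisense gene in GENCODE 29. Of those named, FUT10, GALNT10, ST3GAL3, ST3GAL6 and ST6GALNAC6 overlap a gene on the same strand, which counting by strand would not separate. Whether counting used strand was not stated, so reads of pairs of either kind could be split between them.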

How the data were processed

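Expression had been measured by RNA sequencing in 15 libraries. The authors deposited FPKM per gene and library. Per the submitters' processing notes, Bowtie2, RSEM 1.3.1, DESeq2 1.4.5 and GRCh38 were used, with no role stated; gene models: not given in the sources used here. FPKM were used as deposited, without rescaling, on log2(FPKM + 1).

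Samples were grouped by the labels' titles. Genes with at least 1 FPKM in at least 3 libraries of a fit were tested with limma 3.58.1 (intensity trend) in R 4.3.3, with Benjamini-Hochberg adjustment over all genes tested and a threshold of 0.05. Fits held 6 siNC libraries, 8 AsPC-1 libraries, 6 Capan-1 libraries or 14 for the interaction. The code was tested on simulated data. Python 3.11.15, numpy 2.4.6, pandas 2.3.3 and matplotlib 3.10.9 served for description and figures. Promoters came from RefSeq (GRCh38.p14) and gene positions from GENCODE 29.

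The members, lists and tests were chosen with earlier results of these data known. Values in every library are given for members called at baseline with a log2 difference of at least 1 and 2 FPKM or more on average in 1 line, for members called after a knockdown with a change of at least 0.5, and for the highest member of each class. Alternatives were pseudocount 0.1, no filter, a filter of 5 FPKM, median-ratio scaling, a common sum, no trend, other sets of libraries, a replicate block, single libraries left out in turn, and AsPC-1 siB3GNT3 replicate 3 included.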

Additional observations from a re-analysis of the deposited data

Results flagged for a closer look

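The response to siB3GNT3 differed between the lines for 9 of 25 members tested, by the interaction term of limma over 14 libraries, a share near the 32.8% of all 12236 genes. It is given as the log2 response in Capan-1 minus that in AsPC-1. It was positive for GALNT2 (0.63, adjusted p = 0.000431), GALNT7 (0.60, 0.00102), ST6GALNAC4 (0.63, 0.00806) and ST3GAL2 (0.44, 0.0110). It was negative for GCNT2 (-0.80, 0.00473), B3GALT5 (-0.72, 0.0208), FUT8 (-0.53, 0.0274), ST3GAL3 (-0.47, 0.0288) and C1GALT1C1 (-0.46, 0.0144).

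GALNT7 rose in Capan-1, by 0.39 (adjusted p = 0.00538), and stood lower without passing the test in AsPC-1 (-0.21, adjusted p = 0.0601). GCNT2 rose in AsPC-1 by 0.37 (adjusted p = 0.00495) and did not pass the test in Capan-1 (-0.43, adjusted p = 0.0560). With AsPC-1 siB3GNT3 replicate 3 in its labelled group, GALNT7 (0.53, adjusted p = 0.0138), FUT8 (-0.57, 0.0451) and C1GALT1C1 (-0.51, 0.0260) were still called, and the other 6 were not (adjusted p between 0.0681 for B3GALT5 and 0.792 for ST6GALNAC4).

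Leaving out 1 library ended some of these calls. ST3GAL2 and C1GALT1C1 were lost without AsPC-1 siB3GNT3 replicate 1 (adjusted p = 0.0510 and 0.0567) and B3GALT5 without replicate 2 (0.0794). FUT8 was lost without AsPC-1 siNC replicate 3, either kept AsPC-1 siB3GNT3 library, any Capan-1 siNC library or Capan-1 siB3GNT3 replicate 2 (adjusted p up to 0.0890). ST3GAL3 was lost without AsPC-1 siNC replicate 1 or 3, either kept AsPC-1 siB3GNT3 library, Capan-1 siNC replicate 1 or Capan-1 siB3GNT3 replicate 2 (up to 0.102). GALNT2, GALNT7, GCNT2 and ST6GALNAC4 passed in each of these fits.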

How the results depend on the processing

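Of the single-gene values under alternatives, 2106 kept their direction and side of the threshold, 105 lost a call, 66 gained one and 0 turned. Including AsPC-1 siB3GNT3 replicate 3 left 0 members called with siB3GNT3 in AsPC-1, 3 between the knockdowns and 3 in the interaction, and put B3GNT3 itself at -1.84 (adjusted p = 0.168). Over all genes, 0 of 10804, 1716 of 10804 and 1204 of 12247 were called in these comparisons. The filter of 5 FPKM, which tests fewer members, gave 5 calls with siB4GALT5, 6 with siB3GNT3 in AsPC-1, and 7 between the knockdowns. Over all genes it gave 4701, 4276 and 2911 calls of 7419 tested. Sharing the spread over 14 libraries gave 14 calls in Capan-1, with 4759 of all 12236 genes called against 3786 of 11493 in the main fit. Leaving out each library gave 19 at baseline, 7 to 12 with siB4GALT5, 8 to 11 with siB3GNT3 in AsPC-1, 5 to 15 in Capan-1 (5 without siNC replicate 2 or 3, 15 without siB3GNT3 replicate 3), 5 to 11 between the knockdowns (5 without siB3GNT3 replicate 1 or 2) and 5 to 14 in the interaction (5 without AsPC-1 siB3GNT3 replicate 1, 14 without Capan-1 siB3GNT3 replicate 3). GALNT3 and ST3GAL3 at baseline missed the filter without a Capan-1 siNC library, and FUT10 and ST3GAL6 without an AsPC-1 one. Over all genes, fits with 1 library left out called 8368 to 9288 at baseline and 2069 to 5715 in Capan-1. Where both kept AsPC-1 siB3GNT3 libraries stayed, they called 5366 to 6863 with siB4GALT5 and 4862 to 6700 with siB3GNT3 in AsPC-1. Those fits called 3062 to 4865 between the knockdowns and 3426 to 5036 in the interaction. The cause of these moves was not tested. The common sum moved the baseline median of all genes from 0.09 to 0.23, and median-ratio scaling to -0.00. The share of called genes that were higher went, with median-ratio scaling and the common sum, from 60.5% to 49.1% and 70.9% with siB4GALT5 and from 61.5% to 46.7% and 72.2% with siB3GNT3 in AsPC-1; it went from 56.8% to 46.1% in Capan-1 and from 42.2% to 53.0% in the interaction. Capan-1 over AsPC-1 class sums differed by 0.65 (log2) for GALNT, 0.89 for core, -0.65 for sialyl and 1.53 for fucosyl genes. These sums were taken over the members only, without relatives such as ST3GAL5 and GALNT9. With the common sum the differences were 0.81, 1.05, -0.48 and 1.69. Median-ratio scaling gave 0.57 for GALNT and 1.45 for fucosyl genes. Same-numbered libraries correlated between -0.0666 and 0.0699, and not every sample correlated best with its own number. Groups this small cannot decide whether libraries were paired, since deviations from a group mean are bound to each other. Numbers in the library names, which differ from the replicate numbers, were not tried. With the replicate number as a block, 21, 8, 11, 11, 10 and 10 members were called at baseline, with siB4GALT5, with siB3GNT3 in AsPC-1 and Capan-1, between the knockdowns and in the interaction. Over all genes the block gave 9831, 6285, 5470, 3311, 3623 and 3940 calls, against 9891, 6271, 5697, 3786, 3789 and 4009 in the main fits. Depth is unknown, so what it limits was not measured.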
